A study of Drosophila melanogaster with 7 samples.

Results

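Ribosomal protein genes of the cytoplasmic ribosome were examined for CLAMP peaks in 2 *Drosophila melanogaster* cell lines. A gene counted as a member if it was protein-coding, lay on X, 2L, 2R, 3L, 3R or 4, and had a symbol of the form RpL, RpS or RpLP in the annotation, which sets aside the mitochondrial ribosomal proteins (mRp). This gave 92 members of 13922 protein-coding genes on these arms. By symbol, 50 were of the large subunit and 38 of the small subunit. A further 4 were named for the stalk (RpLP0, RpLP0-like, RpLP1 and RpLP2). The gene sta, for which RpSA is an older synonym, did not match the rule and was not counted. The rule uses symbols alone, although the family was picked for study with earlier results of these data known.

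The libraries were 3 CUT&RUN libraries with rabbit anti-CLAMP from S2 cells and 2 from Kc cells, each line with 1 control library made with rabbit IgG. S2 is a male and Kc a female line of embryonic origin, the cells were unfixed and no treatment is labelled, and each line stands for its sex as a single cultured line. The submitters state that a further Kc sample was left out for lack of material. The study asked where CLAMP occupies chromatin differently in the male and the female line. The labels do not say whether replicates were separate cultures, so their spread may be technical.

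The deposited lists hold called peaks without read counts, so the depth is unknown, and the intervals given for shares cover counting error only. On the 6 arms the CLAMP lists held 8904, 8801 and 5535 peaks in S2 and 9832 and 8769 in Kc, and the IgG lists 1165 in S2 and 8615 in Kc. S2 replicate 3 had the shortest CLAMP list, and results that rest on it are given without it as well. As a check of the line labels, the male-specific noncoding RNA gene roX1 had 3, 2 and 2 peaks in the S2 CLAMP lists and 0 in both Kc CLAMP lists, with 1 peak in the S2 IgG list. The other such gene, roX2, did not separate the lines, with 1, 2 and 2 peaks in S2 and 1 and 2 in Kc.

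The cytoplasmic ribosome is built from RNA and from the proteins these genes encode, and the genes are transcribed at high rates in growing cells. In flies many of them start transcription at a pyrimidine-rich initiator (TCT) that is served by the TBP-related factor Trf2, and loss of a single copy of many of them gives the Minute phenotype of slow development and thin bristles. CLAMP, a DNA-binding protein with zinc fingers, recognises GA repeats and is known for its part in male dosage compensation, although its sites are not limited to X.

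In every CLAMP library some members carried a peak, and in 4 of 5 the share was above that of protein-coding genes as a whole, while with IgG it was below it. This order depended on the flank in S2 replicate 3 and in both Kc libraries. A member held a peak if a called interval overlapped the gene, or a flank of 500 bp on each side of it, by 1 bp or more. By this rule 72 of 92 members (78.3%) had a peak in 1 or more of the CLAMP lists, against 52.4% of all protein-coding genes. Members were short, with a median length of 1315 bp against 2163 bp for protein-coding genes. Among the 10192 protein-coding genes in the members' length range, 304 to 4677 bp, 43.3% did.

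The libraries of each line differed widely. In S2 replicates 1 to 3, 58, 39 and 18 members held a peak, which is 63.0% (95% Wilson interval 52.8 to 72.2), 42.4% (32.8 to 52.6) and 19.6% (12.7 to 28.8). In Kc replicates 1 and 2, 23 and 35 members did, which is 25.0% (17.3 to 34.7) and 38.0% (28.8 to 48.3). The shares of the 2 lines overlapped: replicate 3 was the lowest of all CLAMP libraries and replicate 1 the highest, both from S2. Over all protein-coding genes the shares were 36.1%, 25.8% and 17.2% in S2 and 28.5% and 28.2% in Kc. Members therefore stood above the background by 26.9, 16.6 and 2.37 percentage points in S2 replicates 1 to 3 and by 9.86 points in Kc replicate 2, whereas Kc replicate 1 lay 3.48 points below it (-3.48). The intervals of S2 replicate 3 and Kc replicate 1 include their backgrounds. With a flank of 250 bp in place of 500 bp, S2 replicate 3 was at -3.67 points, and with 1000 bp Kc replicate 1 was at 4.25 points. With no flank the values were 3.75, 4.74 and -4.84 points in S2 replicates 1 to 3. In Kc replicates 1 and 2 they were then -14.2 and -6.22 points. Within the members' length range the background was 27.5%, 16.8% and 11.1% in S2 and 19.5% and 19.0% in Kc, and all 5 CLAMP libraries were above it, by 5.49 to 35.5 points.

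With all libraries, the lines did not differ beyond the spread of the libraries in the share of members with a peak. It averaged 41.7% ± 21.7 (SD, n = 3 S2 libraries) against 31.5% ± 9.22 (SD, n = 2 Kc libraries), a difference of 10.1 points. Without S2 replicate 1 the difference was -0.543 points. Without S2 replicate 3 it was 21.2 points, and the lines then did not overlap. The excess over protein-coding genes averaged 15.3 ± 12.3 points over the S2 libraries (SD, n = 3), against 3.19 ± 9.43 points over those of Kc (SD, n = 2), and again the groups overlapped. No test was run, since 3 libraries against 2 cannot give an exact p below 0.1. The libraries also differed in the statistical strength of their lists. Peaks with a q-value of 0.0001 or less made up 75.8%, 76.4% and 32.7% of the S2 lists and 53.7% and 67.1% of the Kc lists, and the 2 lists lowest in this respect, S2 replicate 3 and Kc replicate 1, were those that held the fewest members. The part of this strength in the shares was not tested.

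**Figure D1:**
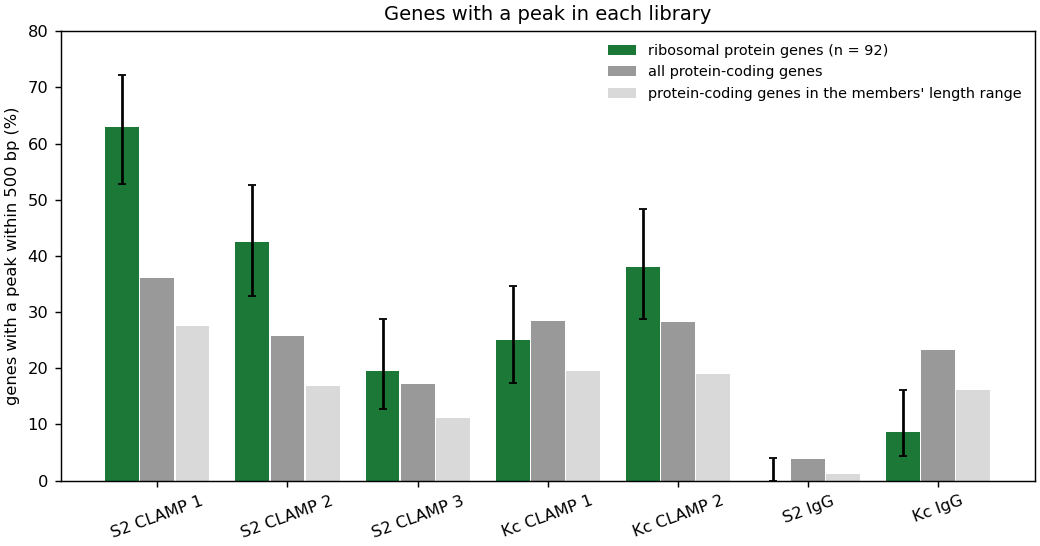
Share of genes with a peak within 500 bp (y axis, %) in each of the 7 libraries (x axis), for the 92 ribosomal protein genes, all 13922 protein-coding genes, and the 10192 protein-coding genes in the members' length range. Error bars are 95% Wilson intervals over the 92 genes. Members reached 63.0% in S2 replicate 1 and fell below the protein-coding share in Kc replicate 1 and in both IgG libraries.

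Few members had a peak with control IgG. In the S2 IgG library 0 of 92 members held a peak, which allows a share of up to 3.26% by the limit of 3 counts and has a 95% Wilson upper bound of 4.01%. The background was 3.86% of protein-coding genes and 1.24% of those in the length range, so the absence of peaks in this short list is near the background. In the Kc IgG library 8 members did (8.70%, 95% Wilson interval 4.47 to 16.2), against 23.3% of protein-coding genes and 16.2% of those in the length range. Among them were RpL8, RpL10Ab, RpL24-like, RpL34b, RpL35A, RpS3 and RpS30, and of the 8 genes 6 lie on 3R and 2 on 3L. In the Kc IgG list, 33.7% of all peaks had a q-value of 0.0001 or less. None of its 9 peaks at members did, and the highest fold among them, at RpL35A, was 2.05.

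IgG and CLAMP peaks at these genes occupied different places. The CLAMP peaks at members merged into 107 regions, counted per member, and 0 of them overlapped a peak of either IgG library. Of the CLAMP peaks at all protein-coding genes in the length range, 3.57%, 6.80% and 9.97% in S2 and 8.40% and 6.82% in Kc did so. At RpL10Ab, the gene of a large-subunit protein, the Kc IgG peak had its strongest summit within the gene, at 3L 11823595, whereas the CLAMP summits of S2 replicate 1 (3L 11822160, fold 8.06) and Kc replicate 2 (3L 11822159, fold 6.95) coincided within 1 bp, 691 and 692 bp beyond the lower-numbered end and inside the overlapping genes CG11597 and CG5946. RpS30 held IgG peaks and no CLAMP peak. All 9 Kc IgG summits within members' windows lay inside the gene, and 83.5% did so for protein-coding genes in the length range.

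CLAMP summits lay mostly outside the members themselves. Of 210 CLAMP summits in the members' windows, 65 were inside the member and 145 in the flanks, although 59.0% of the window bases are inside members. A summit in a flank can lie inside a neighbouring gene, as those of RpS9 inside CG3408 do. The share inside was 28.7%, 36.0% and 47.1% in S2 replicates 1 to 3 and 20.8% and 28.2% in Kc replicates 1 and 2. For protein-coding genes in the same length range it was 42.4%, 44.7% and 59.5% in S2 and 60.1% and 44.4% in Kc. Members were lower in each of the 5 libraries, but the windows of those genes have more bases inside the gene itself, 64.7% against 59.0%. The members' share averaged 37.3% ± 9.22 over the S2 libraries (SD, n = 3), against 24.5% ± 5.21 over the Kc libraries (SD, n = 2). The 2 groups did not overlap, but the lowest S2 library and the highest Kc library were nearly equal, at 28.7% and 28.2%. When only the gene body was counted, without flanks, the mean excess of members over protein-coding genes in the 5 CLAMP libraries was -3.36 points, against 10.5 ± 11.9 points (SD, n = 5) with the flanks.

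Within 250 bp of either end of the gene lay 125 of the 210 CLAMP summits. The share was 66.2%, 72.0% and 35.3% in S2 replicates 1 to 3 and 25.0% and 61.5% in Kc replicates 1 and 2, where 40.9% of the window bases are that near to an end. Protein-coding genes in the length range had the same division of libraries, with 58.1%, 55.6% and 40.1% in S2 and 34.9% and 50.6% in Kc. The groups overlapped, with means of 57.8% ± 19.7 for the S2 libraries (SD, n = 3) against 43.3% ± 25.8 for the Kc libraries (SD, n = 2). The difference was 14.6 points, and -3.69 points without Kc replicate 1. S2 replicates 1 and 2 and Kc replicate 2 were above the share of bases, and S2 replicate 3 and Kc replicate 1 below it. The nearer end was at a median distance of 194, 166 and 331 bp for the S2 summits and of 360 and 214 bp for those of Kc, and for genes in the length range it was 211, 216 and 320 bp in S2, against 349 and 248 bp in Kc. The annotation used gives gene boundaries without strand, so the ends could not be told apart as start and 3′ end.

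**Figure D2:**
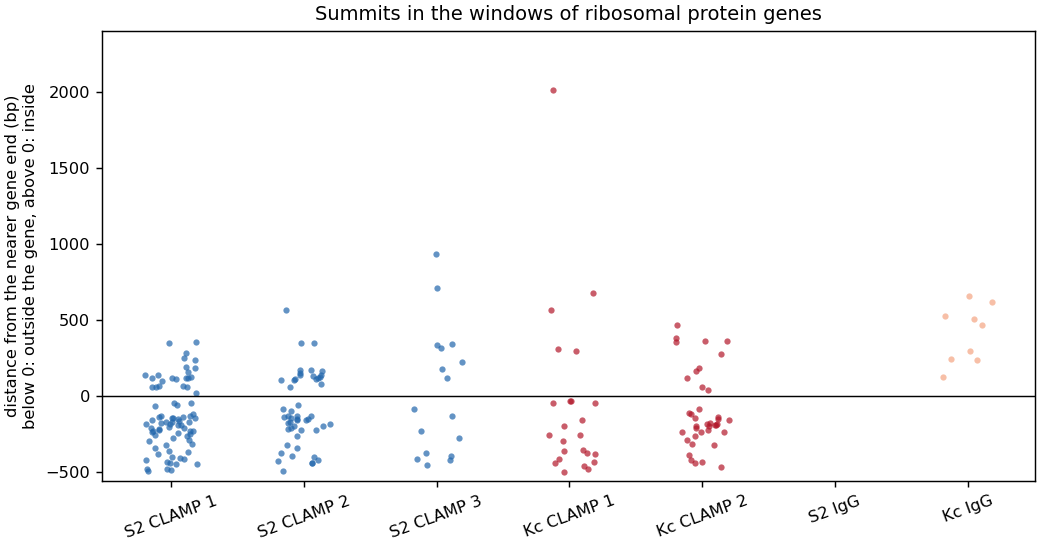
Distance of each summit from the nearer end of its ribosomal protein gene (y axis, bp; below 0 outside the gene, above 0 inside), by library (x axis). Most CLAMP summits lie below 0, outside the gene, S2 IgG has none, and the 9 Kc IgG summits all lie above 0.

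The genes of the family stand close to their neighbours, and 72 of the 92 windows held part of another protein-coding gene. For 124 of the 210 CLAMP summits the nearest end of a protein-coding gene belonged to the member, and for 86 to another gene. Of the 92 members, 57 had at least 1 CLAMP summit for which their own end was the nearest. Peaks at members can therefore be counted for their neighbours too. Among the 20 members with no other protein-coding gene in the window, 11, 5 and 4 held a peak in S2 replicates 1 to 3, against 6 and 5 in Kc replicates 1 and 2. The shares were 55.0%, 25.0% and 20% in S2 and 30.0% and 25.0% in Kc. Outside S2 replicate 1 they were close to those of all protein-coding genes of any length. Among the 2725 protein-coding genes that likewise stand alone in their window, the shares were 24.6%, 20.4% and 16.2% in S2 and 21.1% and 22.7% in Kc. For the 1877 of those genes in the members' length range, the shares were 13.0%, 9.96% and 8.26% in S2 and 11.6% and 12.6% in Kc. These were below the shares of the 20 members in each of the 5 libraries. With 20 members, the shares of members are imprecise.

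Few members were held by every library. A peak in all 5 CLAMP libraries was called at 3 members (RpS9, RpL37-1 and RpL7-like), which is 3.26% against 6.96% of protein-coding genes, and 2.63% of those in the length range. At least 4 CLAMP libraries held 17 members (18.5%), against 16.7% of protein-coding genes and 8.09% in the length range. A further 16 members were held by 3 libraries, 15 by 2 and 24 by 1, and 16 of those 24 by S2 replicate 1 alone. Without S2 replicate 3, the shortest list, 10 members were held by all remaining CLAMP libraries. Of the 17 members held by at least 4 libraries, 12 had a single merged region that reached 4 libraries, 3 of them with all 5. A merged region chains overlapping peaks, so it is not always 1 place. The strongest summits of its peaks spread over 667 bp at RpL7-like and 713 bp at RpL7A.

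**Figure D3:**
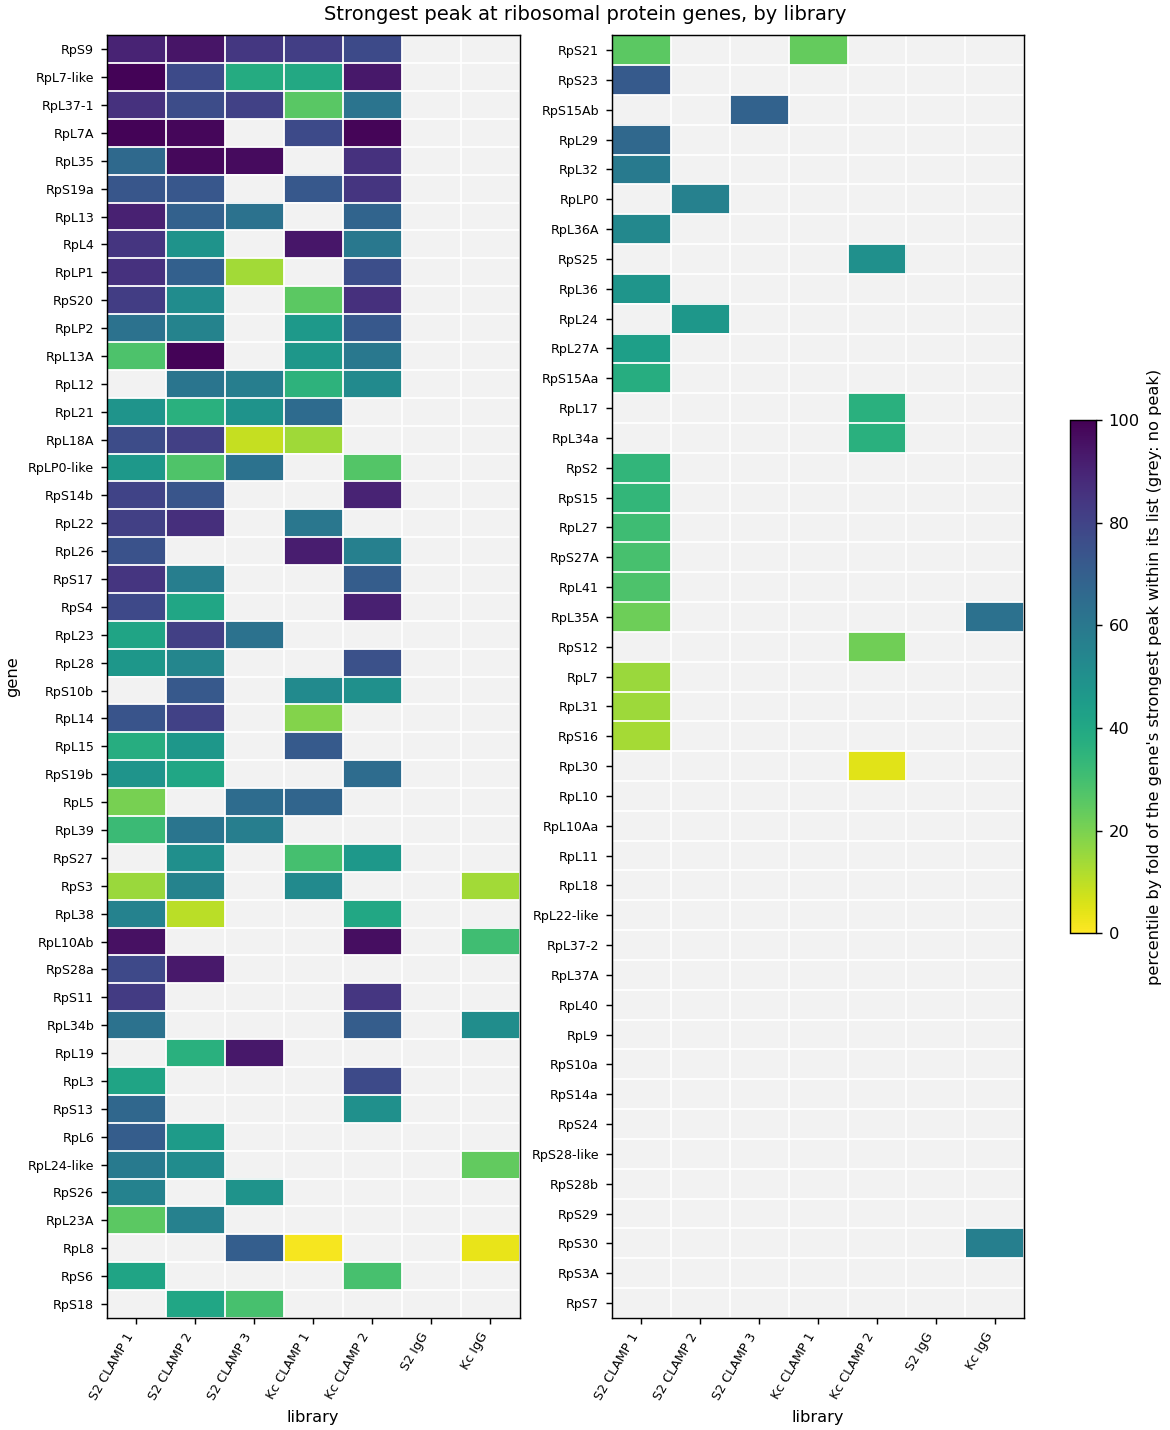
Strongest peak at 89 of the 92 ribosomal protein genes (rows, ordered by the number of CLAMP libraries with a peak) in each of the 7 libraries (columns). Colour gives the percentile of the peak's fold within its own list and grey means no peak. The first 3 rows have a peak in all 5 CLAMP libraries, and 18 members with no CLAMP peak stand in the last rows of the right panel.

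Among the small-subunit genes, RpS9 (3L 9509793 to 9511531) had the highest mean percentile of all members. Its highest fold was 5.84, 8.44 and 2.61 in S2 replicates 1 to 3 and 2.60 and 3.17 in Kc replicates 1 and 2, the authors' own values for single peaks. Within each list these folds stood at percentiles of 89.9, 94.2 and 83.7 for S2, against 81.5 and 77.7 in Kc. The strongest summits of the 5 libraries fell within 39 bp of each other, at 3L 9509397 to 9509436. They lay 357 to 396 bp beyond the lower-numbered end of RpS9 and inside the neighbouring gene CG3408 (3L 9506818 to 9509583).

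RpS19a (X 16637894 to 16639249) was held by 4 libraries, with folds of 3.50 and 3.44 in S2 replicates 1 and 2, against 2.37 and 3.72 in Kc replicates 1 and 2. Its region at X 16637898 to 16638368 begins with the gene, and its summits in S2 replicates 1 and 2 and Kc replicate 2 fell 116 to 130 bp inside it. RpS20 (3R 20822181 to 20823356) had folds of 4.40 and 2.40 in S2 replicates 1 and 2, and of 1.82 and 3.92 in the Kc libraries. The summits of S2 replicates 1 and 2 and Kc replicate 2 lay between 3R 20822015 and 20822027, just outside the gene. S2 replicate 3 had no peak at either gene.

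Among the large-subunit genes, RpL7A (X 6530897 to 6533348) carried strong peaks in 3 libraries. Its highest fold was 11.5 and 12.9 in S2 replicates 1 and 2, against 2.49 and 10.3 in Kc replicates 1 and 2, with no peak in S2 replicate 3. The summits of these peaks in S2 replicates 1 and 2 and Kc replicate 2 lay at X 6534136, 6534137 and 6534130, which is 782 to 789 bp beyond the upper-numbered end and inside dx, the gene of the Notch regulator Deltex (X 6533999 to 6538575). These strongest summits lay outside the window of RpL7A. Weaker summits of the same intervals lay inside it in S2 replicate 1 and Kc replicate 2. With a summit itself required in the window, RpL7A was held by 3 libraries.

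RpL35 (X 5672401 to 5673547) had a peak inside the gene in 4 libraries, with summits at X 5672580, 5672570 and 5672577 in S2 replicates 1 to 3 and at X 5672584 in Kc replicate 2. The summits fell within 14 bp of each other. The fold of this peak was 2.49, 12.7 and 4.57 in S2 and 3.87 in Kc replicate 2. A second peak outside the gene, near Rab18, was called in S2 replicates 1 and 2 and in neither Kc library, with folds of 3.04 and 4.08.

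RpL37-1 (X 15137870 to 15139367) was held by all 5 libraries at X 15139266 to 15139749, beyond its upper-numbered end. The folds there were 4.97, 3.80 and 2.54 in S2 and 1.83 and 2.51 in Kc, and the Kc replicate 1 peak had a −log10 q of 2.01. The nearest protein-coding gene end to each of these summits was that of RpL37-1 itself. A peak at the other end was called in S2 replicate 1 (fold 1.66) and Kc replicate 2 (fold 2.36).

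RpL13 (2L 9967313 to 9968645) shares its flank with Dref, the gene of a factor that binds the DNA replication-related element and acts in growth, 83 bp away. The summits of S2 replicates 1 and 2 and Kc replicate 2 lay at 2L 9967137, 9967138 and 9967136, within 2 bp of each other, and inside Dref (2L 9964147 to 9967229). Their folds were 6.20 and 3.12 in S2 and 2.72 in Kc. S2 replicate 3 had its peak elsewhere, inside RpL13 at summit 2L 9967629 (fold 2.25), and Kc replicate 1 had none.

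RpL4 (3R 27922821 to 27924888) was held on its upper-numbered side by S2 replicate 1 and by both Kc libraries, at 3R 27924847 to 27925974. The folds there were 4.78 in S2 and 3.43 and 2.46 in Kc, and the region overlaps the gene mino (3R 27925191 to 27933077). The summits with folds of 4.78 and 3.43 lay 721 and 665 bp beyond RpL4, inside mino and outside the window of RpL4. Summits within the window on this side had folds of 2.78 in S2 replicate 1 and 2.43 and 2.46 in Kc replicates 1 and 2. The S2 replicate 2 peak (fold 2.32) lay at the opposite end of RpL4, inside the gene, so 4 libraries held the gene but not the same site.

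RpL7-like (2L 12056326 to 12058251) differs from the genes above in that its yeast counterpart, Rlp7, works in the assembly of the large subunit. Its strongest peak had a fold of 11.5, 3.89 and 2.01 in S2 replicates 1 to 3 and 1.97 and 5.58 in Kc replicates 1 and 2. The summits of S2 replicates 1 to 3 and Kc replicate 2 lay at 2L 12056163 to 12056241, in the space of 283 bp between RpL7-like and JhI-21 (2L 12051755 to 12056042). The Kc replicate 1 summit, at 2L 12055962, fell inside JhI-21. In the annotation RpL7-like shares most of its length with CG34164 (2L 12056348 to 12058251), so the peaks at the 2 genes cannot be told apart.

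**Figure D4:**
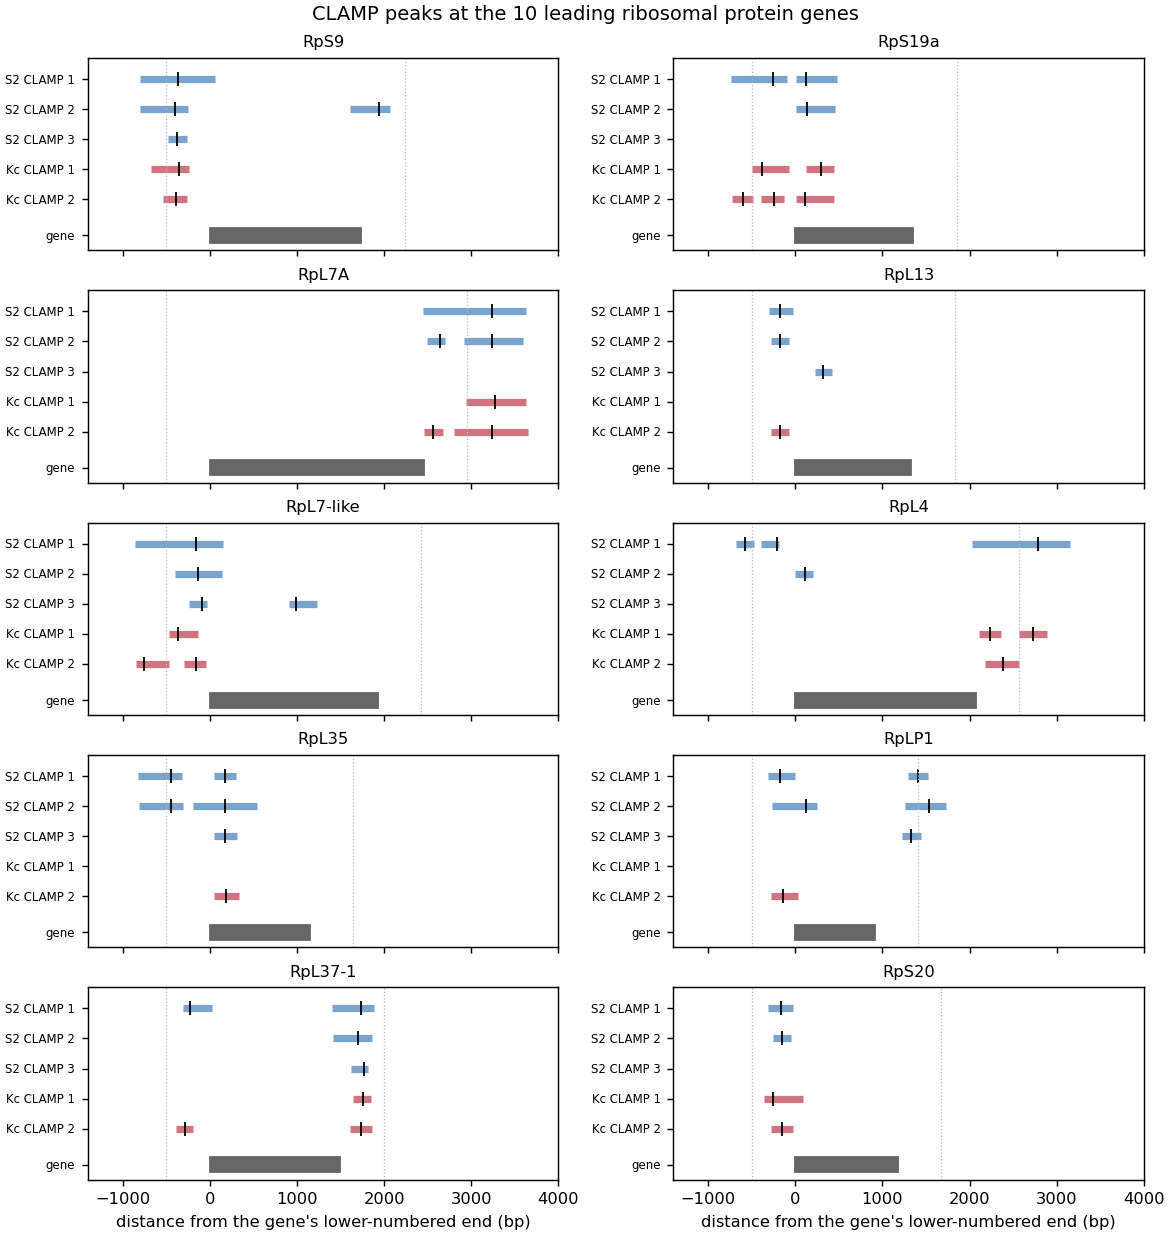
CLAMP peaks at the 10 members with the highest mean percentile of fold, against the distance from the gene's lower-numbered end (x axis, bp). Blue bars are S2 peaks and red bars Kc peaks, black ticks mark the strongest summit, grey boxes the gene, and dotted lines the window of 500 bp. RpS9 and RpL37-1 have 5 peaks at the same place, whereas the RpL4 peaks lie at both ends.

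The stalk is the protuberance of the large subunit that recruits elongation factors. Each of the 4 genes named for it had a CLAMP peak, against 52.4% of all protein-coding genes. Of these 4, 3 had one in 4 libraries, against 16.7% of protein-coding genes with one in at least 4. RpLP1 (2L 419952 to 420864) had 2 regions. The region on its lower-numbered side was held by S2 replicates 1 and 2 (folds 5.02 and 2.72) and Kc replicate 2 (fold 3.07). The other, at 2L 421172 to 421687 which overlaps CG11885, was held by all 3 S2 libraries with folds of 2.35, 3.16 and 1.74 and by neither Kc library. The S2 replicate 3 peak there was weak, with a −log10 q of 0.802. RpLP2 had folds of 2.87 and 2.50 in S2 replicates 1 and 2, against 2.02 and 2.91 in Kc replicates 1 and 2. RpLP0-like, whose yeast counterpart Mrt4 is an assembly factor, was held by all 3 S2 libraries (folds 2.33, 1.94 and 2.25) and Kc replicate 2 (1.93), and the summits of these peaks lay inside 14-3-3zeta. RpLP0 itself had a peak in S2 replicate 2 alone (fold 2.52).

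Large-subunit genes held a peak in 34, 22 and 12 of 50 cases in S2 replicates 1 to 3 and in 14 and 17 in Kc replicates 1 and 2. Small-subunit genes did so in 21, 13 and 4 of 38 cases in S2 and in 8 and 15 in Kc. As shares, the large subunit was above the small one in S2 (68.0%, 44.0% and 24.0% against 55.3%, 34.2% and 10.5%) and in Kc replicate 1 (28.0% against 21.1%), and below it in Kc replicate 2 (34.0% against 39.5%).

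Complete separation of the lines was rare. A peak in all 3 S2 and no Kc CLAMP library was called at 2 members, RpL23 and RpL39 (2.17%), against 1.13% of protein-coding genes. A peak in both Kc lists with no S2 peak was found at 0 of 92 members (0%), against 1.74% of protein-coding genes. RpL23 (2R 22854383 to 22855694) had its strongest summits at 2R 22853957, 22853952 and 22853958 in S2 replicates 1 to 3, within 6 bp. Their folds were 2.22, 4.28 and 2.25. These summits lay 425 to 431 bp outside RpL23, and the nearest protein-coding gene end was that of CG13531, 125 to 131 bp away. The S2 replicate 3 peak had a −log10 q of 2.76, and with a q-value of 0.0001 or less RpL23 was held by 2 libraries. With a flank of 250 bp it was held by 1.

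RpL39 (2R 24061853 to 24062431) lies next to RpL12, and the 2 windows overlap. Its S2 replicate 2 and 3 peaks (folds 2.71 and 2.18) lay inside RpL39 and were counted for RpL12 too, whereas the S2 replicate 1 peak (fold 2.05) lay 516 bp outside RpL39 at its summit. The 2 Kc peaks of RpL12, with folds of 1.92 and 2.31, lay at 2R 24059698 to 24060023, on the far side of that gene. This was the only region at a member that both Kc and no S2 library held. At this pair of genes the S2 and the Kc peaks therefore did not overlap.

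Beyond the 10 leading genes, some strong peaks were found in 1 or 2 libraries. RpL13A had a fold of 15.9 in S2 replicate 2, the highest of the 207 CLAMP peaks at members, against 1.99 in S2 replicate 1 and 2.03 and 2.46 in Kc replicates 1 and 2. RpS28a had peaks in S2 replicates 1 and 2 and in no other CLAMP library. Beyond its lower-numbered end the summits, at 3R 30022101 and 30022117 and inside Mgat2, had folds of 3.88 and 5.24. Towards the other end the S2 replicate 1 summit (fold 2.51) lay inside RpS28a, at 3R 30022632. The S2 replicate 2 summit there (fold 7.80) lay 163 bp outside RpS28a, at 3R 30022811, and 31 bp from the end of Axn. A fold of 5 or more was reached by 16 peaks at 10 members, namely RpL7A, RpL7-like, RpL10Ab, RpL13, RpL13A, RpL22, RpL35, RpLP1, RpS9 and RpS28a. The median fold of all 207 peaks was 2.37. Within their lists the peaks at members stood at a median percentile of 50.2, 55.9 and 62.2 for S2, against 52.1 and 61.6 in Kc, near the middle.

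Several ribosomal proteins are encoded by 2 or more genes. Genes were grouped here by a shared name, which does not make each a copy, and many of these groups were held unequally. RpL37-1 was held by all 5 CLAMP libraries and RpL37-2 by 0. RpL22 was held by 3 and RpL22-like, which is enriched in testis, by 0, and RpS10b by 3 and RpS10a by 0. RpL7-like was held by 5 against 1 for RpL7, and RpLP0-like by 4 against 1 for RpLP0. As given above, the yeast counterparts of these 2 -like genes are assembly factors, so they are not second copies of RpL7 and RpLP0.

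For other sets the gap was smaller. RpS19a had 4 and RpS19b 3, RpL10Ab 2 and RpL10Aa 0, RpL24-like 2 and RpL24 1, and RpL34b 2 and RpL34a 1. RpS15Aa and RpS15Ab had 1 each. RpS28a had 2, RpS28b 0 and RpS28-like 0.

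RpS14a and RpS14b lie side by side on X, 220 bp apart, and encode the same protein. The peaks of S2 replicates 1 and 2 and Kc replicate 2 lay beyond RpS14b, with summits at X 7936055, 7936055 and 7936059 and folds of 4.14, 3.48 and 4.65, and inside Ubr3 (X 7935896 to 7953883). No peak was called at RpS14a. How reads that match both copies were treated is not stated for these lists, so the lack of peaks within near-identical copies is uncertain.

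Of the 14 X-linked members, 10, 8 and 2 held a peak in S2 replicates 1 to 3 and 6 and 9 in Kc replicates 1 and 2. That is 71.4%, 57.1% and 14.3% in S2 and 42.9% and 64.3% in Kc, against 61.5%, 39.7% and 20.5% in S2 and 21.8% and 33.3% in Kc for the 78 autosomal members. X-linked members were thus above autosomal ones in every CLAMP library but S2 replicate 3. All X-linked protein-coding genes showed the same order, with 39.4%, 34.4% and 9.06% in S2 and 39.7% and 34.9% in Kc, against 35.5%, 24.1% and 18.7% in S2 and 26.4% and 26.9% in Kc for autosomal genes. With 14 genes on X, a single gene moves the share by several points. In S2 replicate 3, 0 of the 23 members on 3R held a peak, although 15.7% of protein-coding genes on 3R did, while on 2L 6 of 19 members held one, against 21.8% of protein-coding genes, and on 2R 8 of 21, against 19.6%.

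Members without any CLAMP peak numbered 20, and 18 of them had no peak in IgG either. They included RpS3A, the only member on chromosome 4, the large-subunit genes RpL9, RpL10, RpL11, RpL18, RpL37A and RpL40, and the small-subunit genes RpS7, RpS24 and RpS29. They also included RpS30, which had IgG peaks, and the copies RpL10Aa, RpL22-like, RpL37-2, RpS10a, RpS14a, RpS28b and RpS28-like.

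Genes of neighbouring function gave different shares. Of 73 mitochondrial ribosomal protein genes, 30, 14 and 7 held a peak in S2 replicates 1 to 3 and 11 and 18 in Kc replicates 1 and 2. As shares these were 41.1%, 19.2% and 9.59% in S2 and 15.1% and 24.7% in Kc, below the cytoplasmic members in each of the 5 libraries. The mitochondrial ribosomal protein genes are also shorter, with a median of 909 bp. Only mRpL53 was held by all 5.

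Of 52 genes of translation initiation and elongation factors, 26, 17 and 7 had a peak in the S2 replicates, and 14 and 21 in the Kc replicates. In S2 these shares were below those of the members: 26 of 52 against 63.0%, 32.7% against 42.4% and 13.5% against 19.6%. In Kc they were close to those of the members and slightly above them, at 26.9% against 25.0% and 40.4% against 38.0%. The factor genes are also longer, with a median of 1955 bp against 1315 bp for members, and the part of length was not tested. All 5 CLAMP libraries held 4 of the 52 factor genes (7.69%), near the 6.96% of all protein-coding genes. These were the helicase gene eIF4A, the elongation factor gene eEF2, eIF5B and eIF4EHP. The 23 regulators and ribosome assembly genes are long, with a median of 3912 bp. In S2 17, 14 and 11 of them held a peak, and in Kc 12 and 13. As shares these were 73.9%, 60.9% and 47.8% in S2 and 52.2% and 56.5% in Kc. Protein-coding genes of any length had 36.1%, 25.8% and 17.2% in S2 and 28.5% and 28.2% in Kc. The part of length in this difference was not tested. Held by all 5 were 7 of the 23 listed genes, which is 30.4% against 6.96% of protein-coding genes of any length. The 7 were Clamp itself, Trl (the GAGA factor), Trf2, Xrp1 (a factor of the Minute response), S6k, pes and bel. M1BP, whose product binds many ribosomal protein promoters, had a peak in 1 library, and Tbp had none.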

How the data were processed

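CUT&RUN libraries were made from unfixed S2 and Kc cells with anti-CLAMP or control IgG, per the labels' protocols. FastQC, Trimmomatic, Bowtie2, MACS2 and the dm6 build are named in the submitters' processing notes; versions, settings, the control library used in peak calling and the treatment of duplicates are not given in the sources used here. Each deposited list gives peaks called per library with a score, a fold enrichment at the summit (a ratio) and −log10 p and −log10 q values, all made by the authors' peak caller. The score was not used. The fold is over the caller's own background, so folds were ranked within a list.

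Genes and neighbours came from a RefSeq table of the Release 6 plus ISO1 MT assembly, which gives boundaries without strand or transcript starts. The planned share of summits nearest the gene start was therefore replaced by the share within 250 bp of either gene end. A peak counted for a gene if it overlapped the gene or 500 bp to either side by 1 bp or more. Reads were paired and short, per the labels' protocols, so peaks within near-identical copies are uncertain. Shares have 95% Wilson intervals, and a count of 0 allows up to 3 counts. Library values were averaged per line, and no p-value was computed.

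Members and lists were chosen with earlier results of these data known. Genes were named if they ranked among the 10 highest by mean percentile of fold over the CLAMP lists (0 without a peak). Genes with a peak in all 5 CLAMP lists or in an IgG list were named too. So were genes with a peak in every CLAMP list of 1 line and none of the other. Genes with a shared name were named if they differed by 3 or more libraries. Other genes were named after their values were seen. Of 24 regulators and assembly genes listed, 23 matched a symbol. S2 replicate 3 was assigned by its title. A few members are counted in the totals but not reported by name here. The overlap code was tested on simulated intervals. Python 3.11.15, pandas 2.3.3, numpy 2.4.6, scipy 1.17.1 and matplotlib 3.10.9 were used. Alternatives were other flanks, summits in place of intervals, a q-value of 0.0001 or less, lists of equal length, peaks without IgG overlap, genes of like length, a replicate block and leaving out each library.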

Additional observations from a re-analysis of the deposited data

How the results depend on the processing

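The S2 minus Kc difference in the share of members with a peak was 10.1 points and ranged over -0.543 to 21.2 when a library was left out, the lowest without S2 replicate 1. The difference in the share of summits within 250 bp of a gene end was 14.6 points, ranged over -3.69 to 32.8, the lowest without Kc replicate 1, and was 46.5 with no flank. With a replicate block, which here is the same as leaving out S2 replicate 3, these differences were 21.2 and 25.9 points. Deviations of same-numbered libraries from the mean of their line correlated at -0.0759 and -0.015 over 13922 genes. The deviations of the 2 Kc libraries mirror each other, so these values cannot decide whether the numbers pair the libraries. With no flank the mean excess over protein-coding genes was -3.36 points against 10.5. That excess was 5.44 points with lists of equal length and 7.26 points at a q-value of 0.0001 or less. It ranged over 6.34 to 13.9 points when a library was left out. With no flank CLAMP minus IgG was 12 points against 32.2, and summits inside members were 100%, by construction. With 250 bp of flank the share of summits inside members was 48.4% against 32.2%. The count of members held by all CLAMP libraries was 3, and it was 1 at a q-value of 0.0001 or less, 1 with lists of equal length, 0 with no flank and 8 with 1000 bp. It ranged over 3 to 10 when a library was left out, where fewer lists must hold a gene, and was 20 without S2 replicate 3 and Kc replicate 1, an alternative chosen after seeing the data. The count of 72 members with any CLAMP peak stayed within 1.5 times under 13 alternatives, but ranged over 49 to 75. It was 49 with no flank, 54 with lists of equal length and 56 without S2 replicate 1. For the other changes the cause was not tested.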
